A study of Mus musculus with 2 samples.

Results

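The Prrc2 family comprises Prrc2a, Prrc2b and Prrc2c, and the question here was where RNA pulled down with the Prrc2a protein came from its own transcript and from those of its relatives. A peak was taken as a member when at least 1 bp of it overlapped an exon of these 3 genes, which gave 20 peaks among the 36800 of both replicates, with 1 member among 18129 peaks for replicate 1 and 19 among 18671 for replicate 2. The peaks come from RIP-seq, in which RNA bound to a protein is recovered with an antibody and sequenced. Both replicates are whole brain of wild type C57BL/6J male mice at 4 weeks of age, with no other condition, and the protocol describes 3 brains without saying how they were divided. Each peak carries a linear fold enrichment of the immunoprecipitate over a control, and which library was that control is not given in the sources used here. The files hold no read counts, so depth is unknown, and an absent peak cannot be told apart from too few reads. They also hold no expression levels, so the tissue was not checked against marker genes.

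Prrc2 proteins are large, proline-rich, mostly cytoplasmic proteins that vertebrates carry as 3 paralogs. The study concerned N6-methyladenosine (m6A), a methyl mark on adenosine of mRNA. Proteins that recognise the mark are called readers, and GGAC, often as GGACU in RNA, is a core form of its consensus. In mRNA the mark is best known from long internal exons and from the stretch around the stop codon.

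Selected sites under the peaks are given first, as DNA letters of GRCm38 on the mRNA strand. Whether the peaks depend on them was not tested. The one region found in both replicates lies in Prrc2c and holds no GGAC, so its only GAC is shown (capitals), followed by the nearest GGACT, which lies outside it. The remaining sites are the GGACT sequences (capitals) under the wide peaks of exon 16 in Prrc2a and Prrc2b and under the peak over the stop codon of Prrc2b.
Prrc2c, bases of both replicates, chr1:162697900-162697926, reverse strand: agttccagctccGACtcctgtcttggc
Prrc2c, replicate 2 alone, chr1:162698172-162698200, reverse strand: aacaagctactgGGACTcagcaaatccaa
Prrc2a, exon 16, chr17:35156630-35156658, reverse strand: taggcttcggcgGGACTattcctatgaaa
Prrc2a, exon 16, chr17:35155614-35155642, reverse strand: ctaaagctgtggGGACTcctggggccaat
Prrc2b, exon 16, chr2:32214054-32214082, forward strand: gggtgccctgaaGGACTcatggcgctcca
Prrc2b, 3′ UTR, chr2:32231533-32231561, forward strand: ggccccacttggGGACTgcatcttgggct

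All 3 genes had exonic Prrc2a peaks in replicate 2, whereas only Prrc2c had any in replicate 1. Prrc2a had 0 peaks in replicate 1 and 3 in replicate 2. Prrc2b had 0 and 11, and Prrc2c had 1 and 5. The lists therefore overlapped at a single peak, in Prrc2c, and Prrc2a mRNA itself had no peak that both replicates found. Over all 21951 protein-coding genes, an exonic peak was present for 16.5% in replicate 1 and for 21% in replicate 2, a shared one for 12%, and a peak in replicate 2 with none in replicate 1 for 7.5%. Genes without any peak are included in these shares. Genes with like numbers of replicate 2 peaks are compared further below. The 3 genes are long, with 7631 exonic bases for Prrc2a, 11262 for Prrc2b and 16092 for Prrc2c, more than 85.55%, 95.0% and 98.5% of the protein-coding genes respectively. No test was made on these counts, since the series holds 1 condition.

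The order of the genes by covered bases differed between the replicates, though in replicate 1 it rests on the 1 peak of Prrc2c. In replicate 2, peaks covered 49.3% of the exonic bases of Prrc2b, 31.0% of Prrc2a and 7.82% of Prrc2c, and the median over the 4619 protein-coding genes with a replicate 2 peak was 13.8%. In replicate 1 the share was 2.46% for Prrc2c and 0% for Prrc2a and Prrc2b. Averaged over both, Prrc2b reached 24.7% ± 34.9, Prrc2a 15.5% ± 21.9 and Prrc2c 5.14% ± 3.79 (SD, n = 2). Each of these SDs exceeds the gap to the next gene, except that of Prrc2c, so no order of the 3 transcripts holds against the spread between the replicates.

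**Figure D1:**
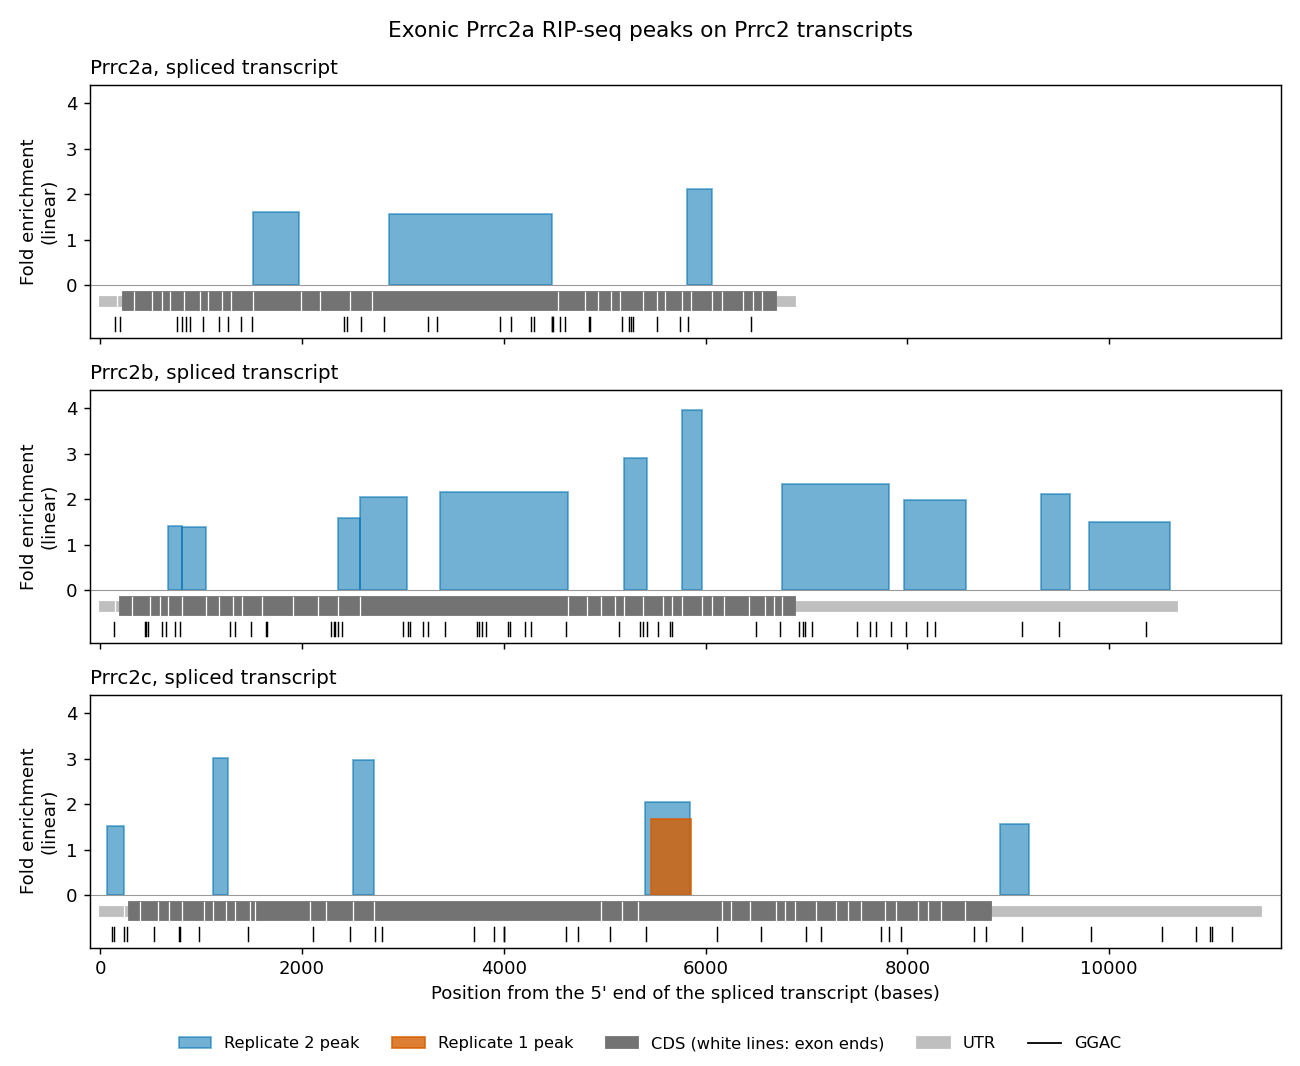
Exonic Prrc2a RIP-seq peaks on the spliced transcripts of Prrc2a, Prrc2b and Prrc2c. The horizontal axis is the position from the 5′ end in bases, bar height is the linear fold enrichment of a peak (blue for replicate 2, orange for replicate 1), the grey track is the transcript with exon ends as white lines, and black ticks mark GGAC. Bars of both colours overlap only in Prrc2c, while 11 replicate 2 peaks run along Prrc2b.

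Libraries of the whole series differed beyond these genes. Peaks outside every annotated exon made up 30.3% of replicate 1 and 11.3% of replicate 2, and their median fold enrichment was higher than that of exonic peaks in both (4.08 against 2.39 in replicate 1, 3.81 against 2.51 in replicate 2). The part of this difference in the missing Prrc2 peaks was not tested.

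Prrc2c (ENSMUSG00000040225) encodes the longest coding sequence of the family, 8541 bases with the stop codon, in 35 exons on the reverse strand of chromosome 1 from 162670725 to 162740556. Its shared peak lay in CDS, wholly within exon 19 (841 bases). Replicate 1 placed it at 162697740 to 162698135 (396 bp, 1.67-fold enriched) and replicate 2 at 162697751 to 162698196 (446 bp, 2.05-fold enriched). Less enriched exonic peaks made up 11.9% of replicate 1 and 27.6% of replicate 2. In position the peaks matched closely. The 385 bases in common make up 97.2% of the peak in replicate 1 and 86.3% of that in replicate 2, so the pair also met an overlap of 50% of both peaks.

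The 385 common bases of Prrc2c hold 0 GGAC and 1 GAC, the site printed first above, at base 5400 of the CDS, where the start codon begins with base 1. The wider replicate 2 peak takes in 1 GGACT, which starts at CDS base 5126. The nearest base of this GGACT lies 49 bases beyond the common stretch, on its 5′ side. Among 133 shared replicate 1 peaks of similar exonic length (within 1.1 times) on chromosomes 1, 2 and 17, 82.0% held a GGAC. The Prrc2c peak is thus among the fewer that hold none, which says nothing on m6A itself, as methylation is not in the files analysed here.

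The other 4 peaks of Prrc2c were found in replicate 2 alone. A peak over exons 8 and 9, from 162715462 to 162715803, had the highest fold enrichment of the gene, 3.01, and a peak at exon 15, from 162707679 to 162707965, had 2.98. Both lay in CDS and held no GGAC. A peak in the 5′ UTR part of exon 1 had 1.52 and one in the 3′ UTR, in exon 35, had 1.56. Exon 16, the longest coding exon of Prrc2c with 2253 bases, had no peak in either replicate.

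Prrc2a (ENSMUSG00000024393), the gene of the precipitated protein, lies on the reverse strand of chromosome 17 from 35149076 to 35164897 and is the most compact of the family, with 31 exons and a 3′ UTR of only 185 bases. All 3 of its peaks had their midpoint in CDS, and all came from replicate 2. The widest ran from 35155425 to 35157039 (1615 bp) within exon 16, the longest coding exon with 1842 bases, of which it covered 87.7%. Its fold enrichment was 1.57, and 5.18% of the exonic peaks of the replicate were less enriched. A peak from 35158951 to 35159406 covered 95.4% of exon 12 with a fold enrichment of 1.61. The most enriched peak of the gene, 2.104, ran from 35150447 to 35150849 over exons 25 and 26. Even that value lay below the replicate 2 exonic median of 2.51. In replicate 1 the closest peak of any kind was 21679 bases away from a Prrc2a peak.

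Prrc2b (ENSMUSG00000039262) lies on the forward strand of chromosome 2 from 32151082 to 32234537, and its 3′ UTR of 3780 bases is the longest of the family. Of its 11 replicate 2 peaks, 7 had their midpoint in CDS and 4 in the 3′ UTR. The most enriched peak of all 3 genes, 3.97, ran from 32221183 to 32221638 over exon 25 and the edge of exon 24, and 85.2% of the exonic peaks of replicate 2 were less enriched. It held no GGAC. The next within Prrc2b, 2.91, ran from 32219140 to 32219576 over exons 21 and 22. Enrichment was lowest toward the start of the CDS, at 1.41 over exon 6 and 1.38 over exon 7, the least enriched of all peaks of the family.

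Long exons of Prrc2b were largely covered. In exon 16, with 2061 bases, peaks from 32212818 to 32213355 (fold enrichment 2.04) and from 32213684 to 32214996 (2.16) together covered 84.1%. This exon is used by the transcript with the longest CDS and left out of another coding transcript of the gene, and the peaks do not tell which transcripts were bound. In the last exon, with 3912 bases, 4 peaks covered 70.8%, with fold enrichments of 2.33, 1.98, 2.12 and 1.49 from 5′ to 3′. The first, from 32230544 to 32231669 (1126 bp), covered the stop codon, and no other peak of the family covered a start or stop codon. The third, from 32233175 to 32233460, also overlapped an exon of Gm13610, an antisense transcript, and the lists carry no strand, so to which gene it belongs cannot be told apart.

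Exon 16 was the longest coding exon of each of the 3 chosen transcripts. In replicate 2, peaks covered 87.7% of it in Prrc2a and 84.1% in Prrc2b, against 0% in Prrc2c. A peak over the longest coding exon is common, however. It was present for 62.3% of 4602 protein-coding genes with a replicate 2 exonic peak. In replicate 1 exon 16 had no peak in any of the 3 genes.

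Across the family, 13 of the 19 replicate 2 peaks had their midpoint in CDS, 5 in 3′ UTR and 1 in 5′ UTR. The shares of these regions over all exonic replicate 2 peaks are not given here. The counts therefore do not set the family apart from other genes. Fold enrichment of the 19 peaks ran from 1.38 to 3.97 with a median of 2.04, and 15 of the 19 lay below the exonic median of the replicate. The 4 highest values, from 2.91 to 3.97, belonged to peaks with 42.8% to 69.7% of their bases in exons, whereas the 7 wholly exonic peaks ranged from 1.49 to 2.12 with a median of 1.61. The 8 peaks under 70% exonic had a median of 2.25 and ranged from 1.38 to 3.97, so the groups overlapped. Over all replicate 2 peaks that touch exons of protein-coding genes, the medians were 2.43 for wholly exonic peaks and 2.54 for those under 70%, a smaller gap in the same direction.

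**Figure D2:**
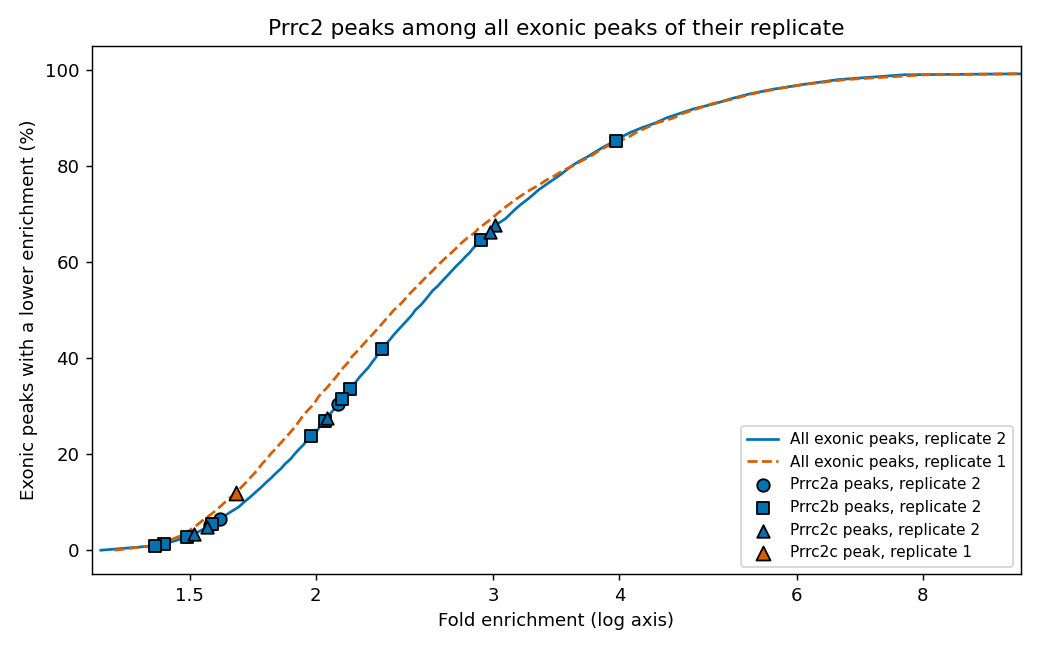
Fold enrichment of the Prrc2 peaks (horizontal, log axis) against the percentage of exonic peaks of the same replicate with a lower value (vertical). Lines are all exonic peaks of replicate 2 (blue) and replicate 1 (orange, dashed), and symbols are the members. Most replicate 2 symbols sit on the lower part of the curve, and the Prrc2b peak of 3.97 is the highest.

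Motifs were counted on the mRNA strand of the spliced transcript, by their first base. In Prrc2a, replicate 2 peaks held 7 GGAC, or 3.02 per kb, and the rest of the transcript 29, or 6.34 per kb. In Prrc2b the densities were close, 5.07 per kb under the peaks (28 GGAC) and 5.44 per kb outside (28 GGAC). In Prrc2c, 5 GGAC under the replicate 2 peaks gave 3.98 per kb against 3.12 per kb outside. Over its CDS alone the direction turned, with 1 GGAC in 798 bases under the peaks (1.25 per kb) against 3.23 per kb outside, and the shared peak of replicate 1 had 0 per kb against 3.33 per kb on the rest of the transcript. GC content was similar inside and outside in Prrc2a (60.4% and 60.7%) and Prrc2b (56.5% and 55.8%), and higher inside in Prrc2c (54.1% and 46.1%).

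Counted peak by peak over the exonic bases, at least 1 GGAC was present in 14 of the 19 replicate 2 peaks, in 2 of 3 for Prrc2a, 9 of 11 for Prrc2b and 3 of 5 for Prrc2c. Over the 3072 replicate 2 peaks that touch exons of protein-coding genes on chromosomes 1, 2 and 17, the share was 70.6%. GGACT was present in 9 of the 19 and in 34.3% of all. The member peaks span from 144 to 1615 exonic bases, and for the width of the Prrc2a exon 16 peak every one of 31 peaks of similar length held a GGAC. The peak of Prrc2a exon 12, with 456 exonic bases, held none, where 77.6% of 228 peaks of similar length had at least 1.

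The counts were set beside those of genes with like numbers of replicate 2 peaks. Of 561 protein-coding genes with exactly 3 replicate 2 peaks, as Prrc2a has, 145 (25.9%) had none in replicate 1, and the median was 2. Of 280 genes with exactly 5, as Prrc2c has, 70 (25.0%) had at most 1 in replicate 1, and the median was 3. Of 43 genes with exactly 11, as Prrc2b has, 3 (6.98%) had none in replicate 1, and the median was 8. A shared peak was missing for 181 (32.3%) of the genes with exactly 3, 50 (17.9%) with exactly 5 and 3 (6.98%) with exactly 11. Of the 240 genes with 11 or more, 9 (3.75%) had none, with a median of 9. Prrc2b is among these 9, which also include Abca1, Cacna1b, Dgkg, Itpr2, Nwd1, Reln and Sema5b, named after their values were seen.

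**Figure D3:**
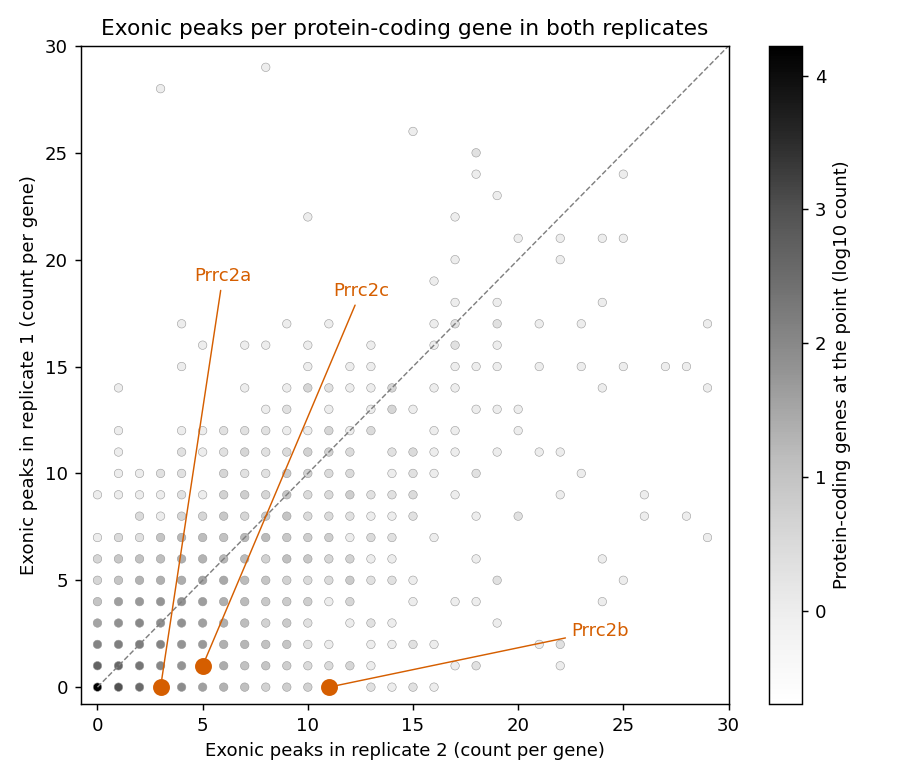
Exonic peaks per protein-coding gene in replicate 2 (horizontal) and replicate 1 (vertical), with shading for the number of genes at each point (log10) and a dashed line of equal counts. The 14 genes with more than 30 peaks in a replicate are not drawn. Prrc2a, Prrc2b and Prrc2c (orange) lie at 3 and 0, 11 and 0, and 5 and 1, all below the dashed line.

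Replicate 1 was not empty over Prrc2b. It had 7 peaks inside the gene and outside every annotated exon, where replicate 2 had none, and all lay in intron 1, which is 31166 bases long. The replicates thus covered separate parts of the gene, with replicate 1 from 32152080 to 32175823 and replicate 2 from exon 6 onward. No such peak was found within Prrc2a or Prrc2c in either replicate. Of the other 8 genes with 11 or more exonic peaks in replicate 2 and none in replicate 1, none had a replicate 1 peak outside exons.

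**Figure D4:**
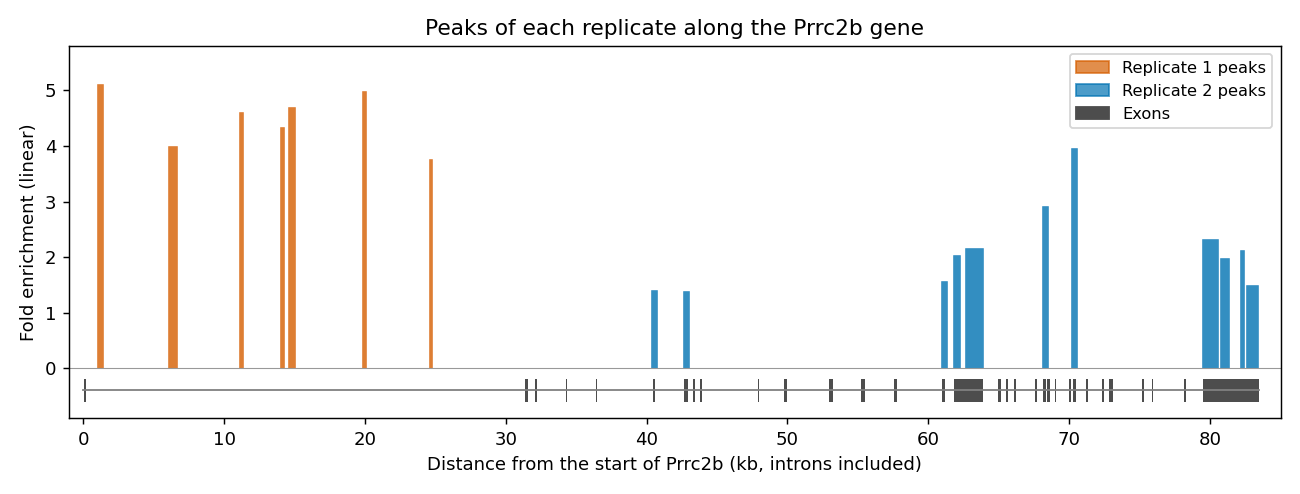
Peaks along the Prrc2b gene with introns included. The horizontal axis is the distance from the gene start in kb, bar height is the linear fold enrichment, and dark boxes are exons of the transcript with the longest CDS. The 7 replicate 1 peaks (orange) all stand in intron 1, and the 11 replicate 2 peaks (blue) stand over exons.

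The genes most like each member were sought among protein-coding genes of similar exonic length (within 1.5 times) whose peak counts differed by at most 1, by the summed difference over the 2 samples in the percentage of exonic bases covered. For Prrc2a these were Arrb1, Vapb and Rxra, all without a peak in replicate 1 and with 30.6%, 31.8% and 29.8% covered in replicate 2, out of 545 candidates. For Prrc2c they were Usp37, Cdk14 and Dop1a, within 0.584 percentage points in sum, out of 85 candidates. Prrc2b had 9 candidates and no close match. The nearest were Abhd2 (2.88% and 42.2% in replicates 1 and 2), Kcna2 (6.17% and 58.2%) and 2610507B11Rik (0% and 32.7%), at 9.99, 15.1 and 16.6 percentage points.

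Proteins of translation initiation and of stress granules, the cytoplasmic bodies in which Prrc2c is known to gather, gave a list of 30 genes to set beside the family. A shared peak was present for 6 of them (20.0%, against 12% of all protein-coding genes), an exonic peak in replicate 1 for 7 (23.3%, against 16.5%) and in replicate 2 for 11 (36.7%, against 21%). Every gene of the list but Eif3b exceeds 3498 exonic bases, the median over all protein-coding genes. The shares were not adjusted for length or expression, and no test was made. By the mean of both replicates, the most enriched shared peaks were those of Tnrc6b, a scaffold of microRNA silencing, at 5.87 and 4.39 in replicates 1 and 2, of the RNA helicase Mov10 with 5.27 and 4.71, and of the RNA helicase Ddx6 with 2.51 and 3.93. Each of these exceeded the 1.67 and 2.05 of the shared Prrc2c peak in both replicates. As they were picked for the highest values of the list, this says little about the list. Eif4g1, Pabpc1, Atxn2 and Larp1 had exonic peaks in replicate 2 alone, as Prrc2a and Prrc2b did, and Larp1, which binds mRNAs of the translation machinery, had 10 of them over 47.1% of its exonic bases. Cnot1, a scaffold of mRNA deadenylation, had 1 peak in replicate 1 and 4 in replicate 2, with none shared. These 5 genes were named after their values were seen. Of all 21951 protein-coding genes, 16688 had no exonic peak in either replicate. The remaining 19 genes of the list had none either. They include the initiation factor genes Eif4g2, Eif4g3, Eif3a, Eif3b, Eif3c, Eif4a1 and Eif4b, the stress granule genes G3bp1, G3bp2, Caprin1, Ubap2, Ubap2l and Atxn2l, the fragile X family Fmr1, Fxr1 and Fxr2, and Larp4 and Tnrc6a.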

How the data were processed

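Prrc2a RIP-seq peaks of whole brain from wild-type mice, 2 replicates of 1 condition, were analysed. Per the methods, the authors used trimmed reads and TopHat on mm10, discarded multiply mapped reads and those below a mapping quality of 20, and ran MACS2 per replicate, without its fragment model, at an FDR threshold of 0.05. The labels' processing notes name TopHat2 2.0.9 and MACS2 2.0.10, whereas the methods name later versions of both. Which versions made the deposited peaks is not settled. The deposited values are peak positions and a linear fold enrichment (a ratio). They carry no read count, p-value, strand or gene.

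Peaks were placed with GENCODE M21 on GRCm38, over all transcripts of a gene, by what lies at the midpoint, with CDS ranked before 3′ UTR and 3′ UTR before 5′ UTR. Peaks of replicate 1 that met a replicate 2 peak by 1 bp or more counted as shared. Exon numbers follow the coding transcript tagged appris_principal_1, which only Prrc2a has, or else the one with the longest CDS. The spliced reference sequence equalled the GENCODE sequence for all 3 transcripts. Genes were named by a written rule, apart from those said to be named after their values were seen: the members, genes sharing an exon with a member peak, the 3 most enriched partner genes and those without peaks, and 3 like genes per member. The members and lists were chosen with earlier results of these data known. A planned alignment of the proteins was not run, as protein sequences were not used here. Peak counts per gene, sharing, placement by midpoint and motif counting were tested on simulated data. The other steps were not. Python 3.11.15, numpy 2.4.6, pandas 2.3.3 and matplotlib 3.10.9 were used. Alternatives were stricter enrichment and overlap, the basic annotation, other region rules and each replicate alone. Some genes counted in these lists are not reported here by name.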

Additional observations from a re-analysis of the deposited data

Results flagged for a closer look

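Replicate 1 had 7 peaks inside Prrc2b that touch no exon, a signal outside the exonic measurement, above the count of 0 in the same gene in replicate 2. From 5′ to 3′, their fold enrichments were 5.11, 4.00, 4.61, 4.33, 4.70, 4.997 and 3.77, of which 5 lay above and 2 (4.00 and 3.77) below 4.08, the median of replicate 1 peaks outside exons. All but the last were above 3.97, the highest exonic peak of the family in replicate 2. They were 200 to 586 bp wide. The last value is held by 57 peaks of the replicate, and each of the others by at most 3. At least 7 peaks outside every exon were found in replicate 1 for 125 protein-coding genes (0.569%), and in replicate 2 for 36. Of the 125 genes, 34 had no exonic peak in replicate 1, and Prrc2b is the only 1 of these with 11 or more exonic peaks in replicate 2. The limits of 7, 0 and 11 are the counts of Prrc2b itself, so its being alone there carries no weight. Intron length was not taken into account. The cause of the 7 peaks was not tested.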

How the results depend on the processing

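With 2 replicates, 1 of them often at 0, the spread between them is too wide to judge stability by. A fold enrichment of at least 2 left 1 exonic peak in Prrc2a, 6 in Prrc2b and 3 in Prrc2c, with 1 and 4 CDS peaks in Prrc2a and Prrc2b, and 0 shared peaks in Prrc2c. The mean share of exonic bases was then 1.93%, 15.7% and 2.48% in Prrc2a, Prrc2b and Prrc2c. At least 4 left 0 peaks, 0 CDS peaks and 0 shared peaks in each gene, 0% of the exonic bases of each, and 2 partner genes with a shared peak. With each replicate left out, exonic peaks ranged from 0 to 3 in Prrc2a, 0 to 11 in Prrc2b and 1 to 5 in Prrc2c, CDS peaks from 0 to 3, 0 to 7 and 1 to 3, the share of exonic bases from 0% to 31.0%, 0% to 49.3% and 2.46% to 7.82%, and the highest fold enrichment of Prrc2c from 1.67 to 3.01. A value of shared peaks needs both replicates. The GGAC density inside minus outside the peaks, per kb, was -3.32 in Prrc2a (GGACT -1.10, CDS alone -3.46), -0.373 in Prrc2b (GGACT -0.08, CDS alone -1.03) and -3.33 in the shared Prrc2c peak (GGACT -0.4502, CDS alone -3.19, common bases -3.33). In Prrc2c it turned to 0.851 over the replicate 2 peaks, and the cause was not tested. Over the CDS bases alone, the replicate 2 peaks of Prrc2c had 1.25 GGAC per kb inside and 3.23 outside. The Prrc2c peak remained shared under each overlap rule. By the most overlapping bases, CDS peaks of both replicates numbered 2 in Prrc2a, 6 in Prrc2b and 4 in Prrc2c. By the midpoint they numbered 3, 7 and 4. A region rule by the APPRIS principal transcript alone was chosen after seeing the data and kept each CDS count within 1.5 times. No paired analysis was possible because all samples belong to 1 group.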
